A study of Mus musculus with 18 samples.

Results

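The fat of male mice whose line began with a let-7e injection was compared with that of mice whose line began with let-7d, over 12 of the 17 libraries in the count table (18 are described). The 12 were taken by title, 6 let-7d and 6 let-7e. In each group 2 libraries carry an identifier without the letter A (the early series) and 4 carry one with it (the late series), so the groups are balanced and the series entered the fit as a term. The 5 control libraries, all late, stayed out of the fit and are given only as a reference level. All groups share the strain C57BL/6, male sex, the WT genotype, the generation called Fm, epididymal white adipose tissue (eWAT) and the diet labelled LFD. They differ in the treatment label, IVF_Let7d, IVF_Let7e or IVF_NegativeControl. By the labels, zygotes were microinjected with the microRNA or a negative control and the Fm males were sired from them, so the RNA is that of offspring and not of an injected animal. The age label says 24 weeks, while the growth notes give chow to week 6 and LFD to week 15, and the labels do not settle this. They tie no library to a sire, litter or separate mouse, so the p-values measure the spread between these samples.

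MicroRNAs are short RNAs that guide Argonaute proteins to messenger RNAs, mostly in the 3′ untranslated region (UTR), and lower their stability or translation. Pairing rests mainly on the seed near the 5′ end, so members of a family with the same seed share many possible targets. The let-7 family is known for restraining growth and proliferation genes and for acting on insulin and insulin-like growth factor signalling. Epididymal fat stores triglyceride, releases fatty acids between meals and secretes leptin and adiponectin, and it holds endothelial, stromal and immune cells beside the fat cells.

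The mature sequences show how little separates both injected microRNAs. They are printed from RefSeq (GRCm38.p6), 5′ to 3′, with let-7a for reference and the seed, bases 2 to 8, in capitals:
mmu-let-7d-5p: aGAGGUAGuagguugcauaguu
mmu-let-7e-5p: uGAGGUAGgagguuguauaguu
mmu-let-7a-5p: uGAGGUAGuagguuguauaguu
Both are 22 bases long, and the seed is the same. From let-7d to let-7e there are 3 substitutions, A1U, U9G and C16U, counted from the 5′ end, and 19 positions are identical. Of 1679 mature mouse microRNAs in that table, 11 have this seed. The let-7d sequence lies at chr13:48536078-48536099 on the minus strand, within the noncoding gene 6720427I07Rik, and let-7e at chr17:17830366-17830387 on the plus strand, within Spaca6. The labels do not say whether the injected RNA was a mimic or a hairpin, and its sequence is not given in the sources used here.

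The 12 libraries held 12717365 to 28972306 counts, with means of 19394000 in the let-7d and 20940800 in the let-7e group. This total, the share of counts from the mitochondrial genome (3.57% against 3.77%) and the share in the 10 highest genes (13.8% against 14.8%) gave exact permutation p-values of 0.495, 0.419 and 0.243, two-sided and permuted within the series, each 0.495 after adjustment over the 3 measures (420 arrangements, smallest possible p 0.00476). Genes of fat cells were high in every library: Adipoq (adiponectin) ran from 1650 to 4490 CPM, Lep (leptin) from 504.4 to 2546 CPM, and Fabp4, Cidec, Plin1 and Pparg averaged at least 206 CPM in each group. CPM is the count scaled to the library's total, here with TMM normalisation factors. The let-7d 1 and let-7d 5 libraries stood apart in genes of absorptive and ciliated epithelium, which summed to 878.82 and 365.45 CPM there and to 12.3 to 89.94 CPM in the other 10. Values without let-7d 1, let-7d 5 or both are given beside many of the results that they move. In whole tissue, fewer cells of a type and less RNA per cell cannot be told apart.

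No gene passed an adjusted p of 0.05 in edgeR's quasi-likelihood test with Benjamini-Hochberg adjustment (0 of 16443, 0.00%), and the smallest adjusted p was 0.166. At an unadjusted p under 0.05 edgeR held 1587 genes (9.65%), 752 higher with let-7e (4.57%) and 835 lower (5.08%). On the same libraries limma-voom, here always run with a quality weight for each library, also called 0 genes (1693 unadjusted, smallest adjusted p 0.0989). DESeq2, by contrast, called 89 of the 14742 genes to which it gave an adjusted p (0.604%), 63 higher (0.427%) and 26 lower (0.176%). Leaving out let-7d 2 gave 2 edgeR calls, Dysf and Btnl9, and the unadjusted count was 1033 without let-7d 1, 1039 without let-7e 2 and 2182 without let-7d 2. Without let-7d 1 the sides turned to 644 higher and 389 lower, and without let-7d 2 they were 944 higher and 1238 lower. The 6 let-7e libraries lay wholly outside the range of the 6 let-7d libraries for 39 genes (0.237%), 22 above (0.134%) and 17 below (0.103%). Over all genes the median log2 fold change was -0.01, and 46.5% of genes were higher with let-7e. Below, "higher" and "lower" give the side of a value, and no gene is said to have risen or fallen.

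The genes with the smallest p on the higher side were Dysf, Myh10 and Lrrc32. Dysf (ENSMUSG00000033788.15, chr6:84008590-84211060), which encodes dysferlin, a protein of membrane repair, stood at 38.64, 61.98 and 67.6 CPM (lowest, median and highest) with let-7d and at 60.93, 87.54 and 99.72 CPM with let-7e. The groups overlapped over both series, yet within the early and within the late series each let-7e library was above each let-7d library. Its log2 fold change was 0.53 (SE 0.0738), a 1.44-fold difference, with an edgeR adjusted p of 0.166 and a DESeq2 adjusted p of 9.87e-07. Controls ran from 55.13 to 102.5 CPM, across both groups. Myh10 (ENSMUSG00000020900.15, chr11:68691559-68816632), a nonmuscle myosin heavy chain, stood at 48.34, 50.81 and 54.54 CPM with let-7d and at 60.49, 64.87 and 68.9 CPM with let-7e. The groups did not overlap, and this tight gene differed by 0.35 (SE 0.0555, edgeR adjusted p = 0.166, DESeq2 9.58e-06). Lrrc32 (chr7:98489283-98502181), a surface protein that binds latent TGF-beta, went from 15.41, 31.71 and 42.94 CPM to 23.15, 49.09 and 64.47 CPM, a log2 fold change of 0.63 (SE 0.101, edgeR adjusted p = 0.166, DESeq2 4.49e-05). Early libraries were low in both groups, and the groups overlapped until the series was taken into account, with a log2 difference of 0.57 in the early and 0.66 in the late libraries.

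The other 9 leading genes on the higher side shared an edgeR adjusted p of 0.453. Apold1, an apolipoprotein L domain protein of endothelial cells, was at 4.904, 8.56 and 10.96 CPM with let-7d and at 12.94, 16.12 and 26.03 CPM with let-7e, with no overlap and a log2 fold change of 1.03 (SE 0.207). Trpv2, a cation channel, was at 17.04, 20.26 and 24.22 CPM against 24.38, 39.79 and 63.98 CPM, also without overlap (0.99, SE 0.206). Btnl9, a butyrophilin-like surface protein, was at 79.16, 111.2 and 162.1 CPM against 164.7, 176.5 and 213 CPM, again without overlap (0.68, SE 0.141). The separation for Btnl9 rested on a narrow gap between the let-7d 2 library and the lowest let-7e library. Kdr, a receptor for vascular endothelial growth factor, was at 144.1, 160.5 and 181.9 CPM against 189.8, 219.1 and 251.1 CPM (0.45, SE 0.0916, no overlap), with a log2 difference of 0.24 in the early and 0.55 in the late libraries. Ptprm, a receptor phosphatase of cell junctions, differed by 0.35 (SE 0.0732, no overlap). Fmnl3 (a formin, 0.37), Syt7 (a synaptotagmin, 0.62), Eng (endoglin, a TGF-beta co-receptor of endothelium, 0.44) and Pdzrn3 (a PDZ domain ubiquitin ligase, 0.56) overlapped between the groups. Each of the 12 genes was called by DESeq2, at adjusted p-values up to 0.00762, and was higher with let-7e within the early and within the late libraries. The genes were picked over both series together, which favours the same side in each.

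On the lower side Ppp1r3c had the smallest p. Ppp1r3c (ENSMUSG00000067279.3, chr19:36731731-36736653), a glycogen-targeting subunit of protein phosphatase 1, stood at 29.02, 43.57 and 54.06 CPM with let-7d and at 15.65, 20.66 and 27.01 CPM with let-7e. All 6 let-7e libraries were below all 6 let-7d libraries, while the controls, at 15.79 to 62.66 CPM, spread over most of both ranges. The log2 fold change was -1.05 (SE 0.163), or 2.07-fold higher with let-7d, with an edgeR adjusted p of 0.166 and a DESeq2 adjusted p of 9.58e-06. Its log2 difference was -1.003 in the early and -1.06 in the late libraries. Arrdc2, an alpha-arrestin, went from 24.09, 29.07 and 43.03 CPM to 14.81, 18.35 and 23.41 CPM without overlap (-0.72, SE 0.139, edgeR adjusted p = 0.453).

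Mid1ip1, a protein that promotes polymerisation of acetyl-CoA carboxylase, stood at 34.78, 75.24 and 137.6 CPM with let-7d and in a narrow band of 35.47, 40.46 and 42.98 CPM with let-7e (-0.99, SE 0.224). The let-7d 2 library alone reached down into the let-7e range, and the controls spread from 29.62 to 130.7 CPM. Acsl3, which activates long-chain fatty acids, was at 14.48, 23.17 and 31.85 CPM against 12.32, 14.32 and 15.65 CPM (-0.73, SE 0.169). Smtnl2, a smoothelin-like protein, was at 5.278, 11.05 and 15.86 CPM against 3.042, 4.182 and 5.499 CPM (-1.32, SE 0.27). Acsl3 and Smtnl2 overlapped only at the let-7d 2 library. Agap2, a GTPase-activating protein, and Smim1, a small membrane protein, did not overlap (-0.59 and -0.39). Rab27a, a GTPase of secretory vesicles, differed by -0.80, Aqp11, an aquaporin, by -0.50, Gramd1b, a sterol transporter at membrane contacts, by -0.49, Erg28, a scaffold of sterol enzymes, by -0.45 and Pdgfc, a platelet-derived growth factor, by -0.41. Smtnl2 shared the edgeR adjusted p of 0.453 of Arrdc2, the genes named after Arrdc2 otherwise had 0.455, and DESeq2 called each of the 12 leading lower genes at an adjusted p of up to 0.0497.

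**Figure D1:**
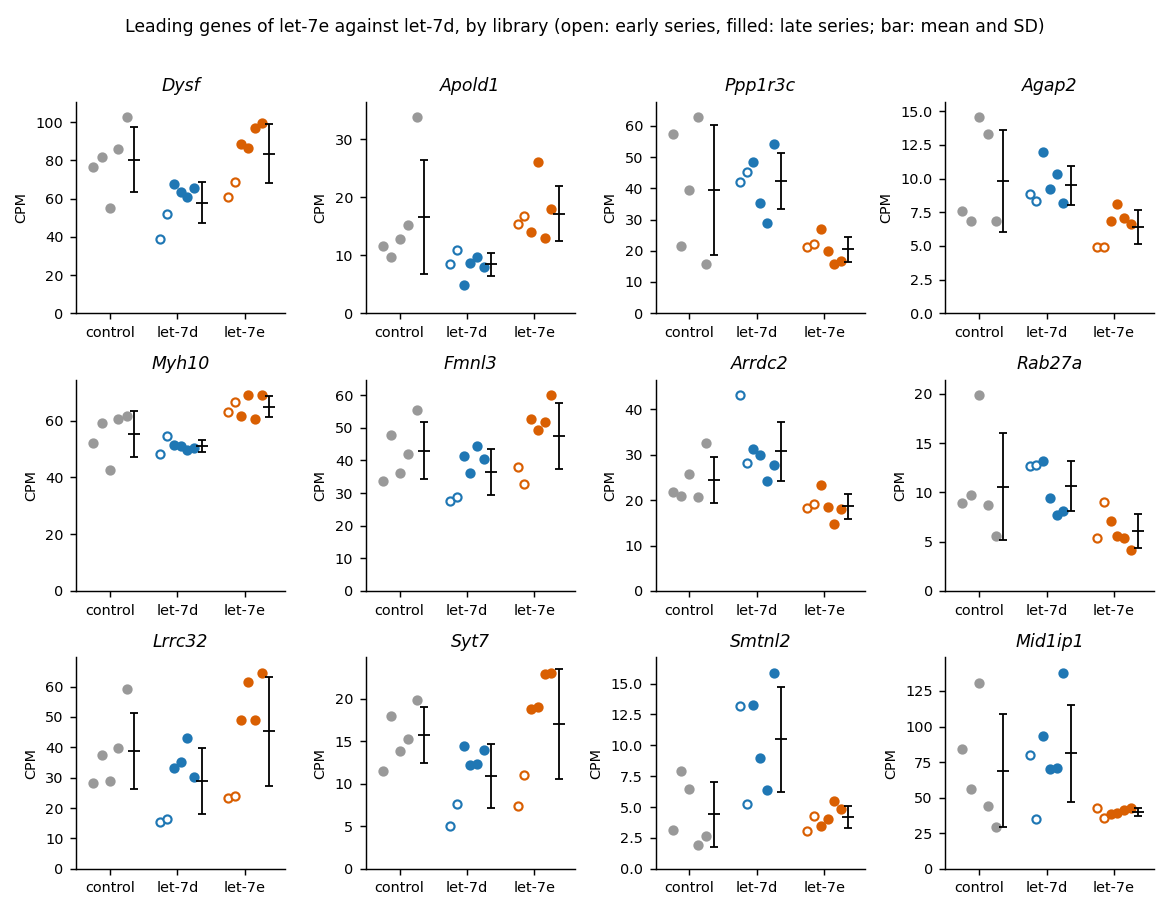
CPM of the 6 leading genes on the higher side (left columns) and the 6 on the lower side (right columns) in each library; grey points are controls, blue let-7d and orange let-7e, open points the early and filled points the late series, and black bars give the mean and SD of a group. Myh10, Apold1, Ppp1r3c, Arrdc2 and Agap2 show no overlap of let-7d and let-7e, whereas Dysf, Lrrc32 and Fmnl3 overlap over all libraries but separate within each series.

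Genes of blood vessel lining were higher with let-7e as a list: 18 of 20 measured members were higher and 2 lower, with a median log2 fold change of 0.17 beside -0.01 over all genes. At an unadjusted p under 0.05 there were 8 higher members and 0 lower, where 4.57% of all genes were higher at that level, and edgeR's adjusted p passed for none. Members at that level numbered 5 without let-7e 4 and 2 with no series term. Kdr and Eng led, at 0.45 and 0.44, followed by Cldn5 (the claudin of tight junctions, 0.43), Sox18 (a vascular transcription factor, 0.34), Gpihbp1 (which carries lipoprotein lipase across the endothelium, 0.31), Cdh5 (the endothelial cadherin, 0.28), Robo4 (0.25) and Egfl7 (0.22). Aqp1 (a water channel, -0.08, from -0.16 to -0.05 as single libraries were left out) and Emcn (endomucin, -0.04) were the lower members, and Emcn turned to 0.02 without let-7d 5. The mean log2 CPM of the list was 6.42 and 6.68 in the early let-7d libraries and 6.77 and 6.83 in the early let-7e libraries, and 7.08 to 7.22 against 7.22 to 7.40 in the late ones. The late groups thus met at their edges, and early libraries of both groups were lower. Leaving out each library in turn kept the median between 0.14 and 0.23. Vegfa, the growth factor that Kdr binds, was chosen after its value was seen: it was at 235 ± 44.0 CPM (SD, n = 6) with let-7d and 336 ± 41.9 CPM (SD, n = 6) with let-7e, did not overlap, and differed by 0.52 (SE 0.127, edgeR adjusted p = 0.455, DESeq2 0.0328).

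Fat cell genes and genes of lipid release leaned the same way. Of 22 measured genes of lipolysis and lipid uptake, 19 were higher and 3 lower, with a median of 0.29, and 8 were higher at an unadjusted p under 0.05, beside 4.57% of all genes. Members at that level ran from 4 (without let-7e 6) to 12 (without let-7d 4). Adrb1, a beta-adrenergic receptor, stood at 3.428, 6.759 and 11.42 CPM with let-7d and at 8.271, 10.85 and 14.86 CPM with let-7e (0.71, SE 0.228, edgeR adjusted p = 0.455). Plin4, a lipid droplet coat protein, stood at 2151, 2708 and 3341 CPM against 3130, 3407 and 4539 CPM (0.39, SE 0.128). Both overlapped between groups. Pnpla2, the first lipase of triglyceride breakdown, was higher by 0.53, Cidec by 0.31 and Cd36, a fatty acid uptake protein, by 0.28, while Fabp5 (-0.11) and Plin2 (-0.05) were on the lower side, with a sign that turned as single libraries were left out. The list stood at 7.99 to 8.88 (mean log2 CPM) with let-7d and at 8.71 to 9.09 with let-7e, the lowest value being let-7d 1. The list's median was 0.22 without let-7d 1 and 0.20 without let-7d 1 and let-7d 5.

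The adipocyte list, which shares 10 genes with it, had 15 of 20 members higher, a median of 0.22 and 6 members at an unadjusted p under 0.05, all higher (3 without let-7e 6), beside 4.57% of all genes. In the early libraries 20 of 20 were higher (median 0.42), and in the late ones 13 of 20 (median 0.12). Adipoq was at 1650, 2728 and 3159 CPM with let-7d and at 2780, 3595 and 4490 CPM with let-7e, overlapping, with a log2 fold change of 0.48 (SE 0.167, edgeR adjusted p = 0.455). Aqp7, the glycerol channel of fat cells, was higher by 0.39, whereas Dgat2, which makes triglyceride, was at -0.37 (-0.24 without let-7d 6, -0.23 without let-7e 4) and Slc2a4, the insulin-dependent glucose transporter, at -0.10 (-0.24 without let-7d 1, -0.0051 without let-7e 4). Without let-7d 1 the list's median was 0.12, with 13 of 20 higher, and without let-7d 1 and let-7d 5 it was 0.10. Lep, by contrast, was at 660.3, 2214 and 2546 CPM with let-7d and at 504.4, 1543 and 1798 CPM with let-7e (-0.44, SE 0.32, edgeR adjusted p = 0.681). Its log2 fold change was -0.62 without let-7d 5 and -0.27 without let-7e 4. Controls ran lower for Lep, from 248.3 to 2080 CPM. Nnat, an imprinted gene of enlarging fat cells, was higher with let-7e by 0.60 (SE 0.216).

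All 23 measured genes of fatty acid oxidation were higher with let-7e, but by small amounts: the median was 0.16 and the range 0.01 to 0.32. Ech1, a dienoyl-CoA isomerase, differed by 0.30 (SE 0.129), and 3 members had an unadjusted p under 0.05, which is 13% beside 9.65% of all genes. That count was 0 without let-7e 6 and 5 without let-7e 5. The size depended on the libraries: the median was 0.36 in the early and 0.05 in the late libraries, 0.07 without let-7d 1 and 0.09 without let-7e 6.

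Synthesis of sterols and fatty acids lay on the other side, mainly in the late libraries. All 24 genes of cholesterol synthesis and its regulation were lower with let-7e, with a median of -0.33 and 5 at an unadjusted p under 0.05, where 5.08% of all genes were lower at that level. Members at that level ran from 5 to 10 as single libraries were left out. Mvd, mevalonate diphosphate decarboxylase, was at 13.04, 19.13 and 26.84 CPM with let-7d and at 9.601, 11.54 and 13.75 CPM with let-7e (-0.71, SE 0.18), and Msmo1, a sterol methyl oxidase, at 18.41, 30.51 and 35.29 CPM against 17.07, 18.6 and 23.06 CPM (-0.57, SE 0.152). Both had an edgeR adjusted p of 0.455 and overlapped. Insig1, which holds back the sterol regulator SREBP, differed by -1.08, Cyp51 by -0.44 and Srebf2, the regulator itself, by -0.25. In the early libraries 14 of 24 were lower, with a median of -0.07, and in the late libraries 24 of 24, with a median of -0.51. Without each library in turn the median ran from -0.42 to -0.27. The controls spread more widely than both groups together, at a mean log2 CPM of 4.05 to 5.81 beside 4.57 to 5.26 with let-7d and 4.32 to 5.001 with let-7e.

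Of 20 genes of lipogenesis, 15 were lower and 5 higher, with a median of -0.24, but the series disagreed: 17 of 20 were higher in the early libraries (median 0.27) and 16 of 20 lower in the late libraries (median -0.55). Fasn, fatty acid synthase, was at 4297, 8287 and 11000 CPM with let-7d and at 4338, 6739 and 10110 CPM with let-7e, with log2 differences of 0.37 in the early and -0.55 in the late libraries. Over both series its log2 fold change was -0.21 (SE 0.235), and it ran from -0.36 to -0.08 as single libraries were left out. Scd2, a desaturase, differed by -0.80 (SE 0.326) and Elovl6, an elongase, by -0.55 (-0.85 without let-7e 5), while Acacb, the mitochondrial acetyl-CoA carboxylase, was higher by 0.61 and Gpam, which starts glycerolipid synthesis, by 0.28 (0.14 without let-7e 2). Scd1, the highest of them, was at 0.09 (SE 0.159, edgeR adjusted p = 0.889), and at -0.02 without let-7e 6. The median was -0.38 without let-7e 1, -0.15 without let-7e 3, -0.15 without let-7e 4 and -0.14 without let-7d 6.

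**Figure D2:**
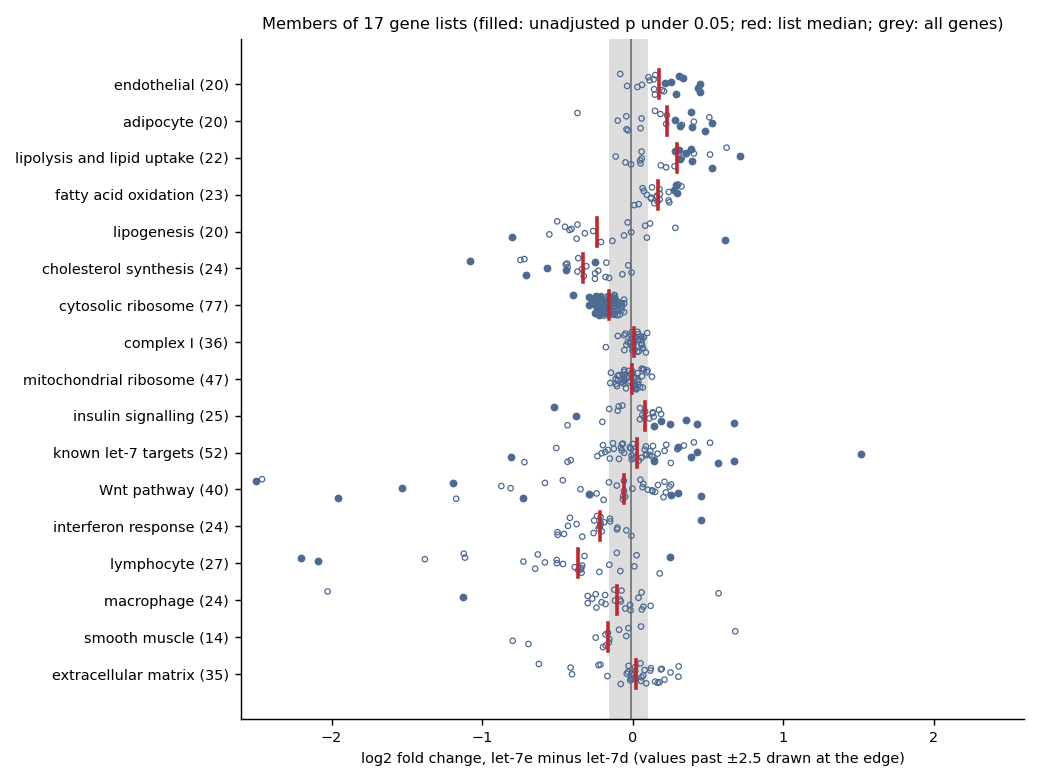
Log2 fold change (let-7e minus let-7d, series as a term) of each measured member of 17 lists, with the number measured in brackets; filled points had an unadjusted edgeR p under 0.05, red bars are list medians, the grey band spans the quartiles of all genes and 1 member past -2.5 is drawn at the edge. Cytosolic ribosome and cholesterol synthesis members lie wholly left of 0, fatty acid oxidation members wholly right of 0, and complex I members sit around 0.

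All 77 genes of the cytosolic ribosome were lower with let-7e, narrowly: the range was -0.40 to -0.06 and the median -0.16. At an unadjusted p under 0.05 there were 26 lower members and 0 higher, beside 5.08% of all genes lower. Members at that level numbered 12 without let-7e 6, 13 without let-7d 4 and 15 without let-7e 2. They include Rps29 (-0.40, SE 0.118), Rps13 (-0.27, SE 0.0812), Rps21 (-0.29) and Rpl39 (-0.29), each with an edgeR adjusted p over 0.05 and no DESeq2 call. Rps13 was at 71.5, 76.43 and 93.31 CPM with let-7d and at 53.21, 65.65 and 76.36 CPM with let-7e, so the groups overlapped. Part of the size came from 1 library: let-7d 4 had a list level of 7.45 (mean log2 CPM) where the other let-7d libraries had 7.03 to 7.13 and the let-7e libraries 6.83 to 7.09. Without let-7d 4 the median was -0.10, with 74 of 77 lower. After removal of the dependence on gene length and GC in every library, a setting chosen after seeing the data, it was -0.11, with 77 of 77 lower. Ribosomal proteins have many near-identical pseudogenes, and how the counting treated reads shared with them is not stated.

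Genes of the respiratory complexes and the mitochondrial ribosome had medians near 0 over the 12 libraries. Of 36 nuclear-encoded subunits of complex I, 22 were higher and 14 lower, with a median of 0.01 and 0 at an unadjusted p under 0.05, and Ndufs1 was at 0.02 (SE 0.0965). The balance hid opposite sides in the series: 36 of 36 were higher in the early libraries (median 0.23) and 35 of 36 lower in the late ones (median -0.09). Complexes III, IV and V and the mitochondrial ribosome had medians of 0.03, -0.06, -0.00 and -0.00. In the early libraries 9 of 9, 12 of 13, 14 of 15 and 46 of 47 of their members were higher, and in the late libraries 9 of 9, 12 of 13, 14 of 15 and 41 of 47 were lower. Among early libraries, let-7d 1 had the lowest complex I level at 6.13 and let-7e 1 the highest at 6.67, with let-7d 2 at 6.39 and let-7e 2 at 6.31 between them. Without let-7d 1, complex I had a median of -0.05, with 5 of 36 higher, and without let-7e 1 of -0.06, with 6 of 36 higher. The late let-7d 4 library had the highest complex I level of the 12, at 6.86, and without it the median was 0.09, with 33 of 36 higher. Without let-7d 4 the medians of complexes III, IV and V and the mitochondrial ribosome were 0.10, 0.04, 0.06 and 0.04, and without let-7e 1 they were -0.06, -0.13, -0.08 and -0.06.

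The citric acid cycle list had 22 of 26 higher, at a median of 0.05, with 25 of 26 higher in the early libraries (median 0.32) and 18 of 26 lower in the late ones (median -0.08). Its median was -0.01 without let-7d 1 (10 of 26 higher), -0.02 without let-7e 1, 0.0046 without let-7e 6, 0.11 without let-7d 4 and 0.10 without let-7e 3. Messenger RNAs of the mitochondrial genome had 7 of 8 higher, at a median of 0.13 (0.05 without let-7d 1, 0.07 without let-7e 6). In the early libraries 8 of 8 were higher (median 0.34), and in the late ones 4 of 8 (median -0.01). In let-7e 6 their mean log2 CPM was the lowest of the 12 libraries (10.32), but their summed CPM was the highest (47938). The gene mt-Co1, a subunit of cytochrome c oxidase, was at 0.18 (SE 0.148), or 0.06 without let-7e 6. Tfam, which maintains mitochondrial DNA, was at 24.54, 26.3 and 29.2 CPM with let-7d and 24.4, 26.69 and 28.7 CPM with let-7e, a log2 fold change of 0.01 (SE 0.0647) whose sign turned with single libraries. Ppargc1a, the coactivator of mitochondrial biogenesis, had a log2 fold change of -0.11 (SE 0.355), and of 0.24 without let-7d 1, which held 12.48 CPM beside 2.64 to 5.367 CPM in the other let-7d libraries. Cpt1b was below 1 CPM in each of the 12 libraries (0.04, SE 0.31). Bnip3 (0.37) and Gabpa (0.15) were higher and Esrra (-0.30) lower at an unadjusted p under 0.05 among 20 mitochondrial regulators. Of 19 genes of mitochondrial and integrated stress, 12 were higher (median 0.07, from 0.02 without let-7e 1 or let-7d 1 to 0.12 without let-7d 4), and Chac1, a glutathione-degrading enzyme of the integrated stress response, was at 4.424, 7.104 and 9.951 CPM against 5.731, 13.46 and 20.8 CPM (0.82, SE 0.204, edgeR adjusted p = 0.455, DESeq2 0.0351). Trib3 of the same response was higher by 0.33. By contrast, Mthfd2 (-0.28) and Shmt2 (-0.18) were on the lower side, at -0.14 and -0.08 without let-7d 1.

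**Figure D3:**
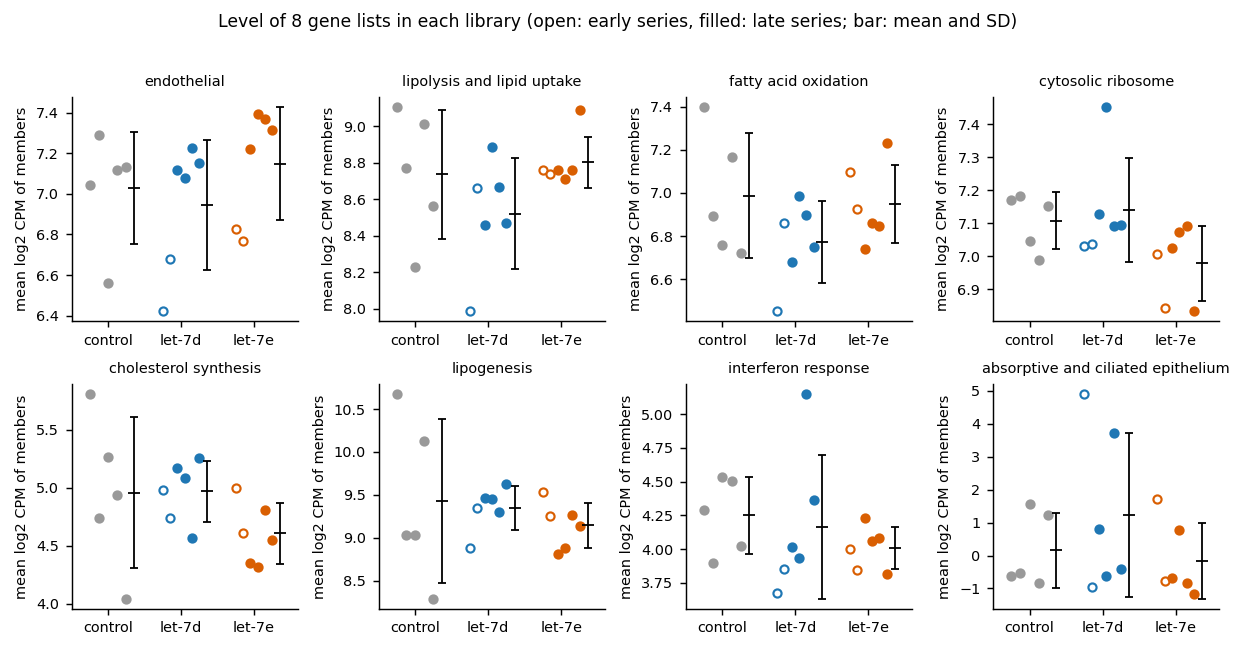
Mean log2 CPM of the members of 8 lists in each library, with grey controls, blue let-7d and orange let-7e, open points for the early and filled points for the late series, and bars for mean and SD. Endothelial levels separate by series as well as by group, let-7d 4 stands alone in the cytosolic ribosome panel, let-7d 5 in the interferon panel, and let-7d 1 and let-7d 5 in the epithelium panel.

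Insulin and insulin-like growth factor signalling, a pathway let-7 is known to act on, had 17 of 25 members higher and 8 lower, with a median of 0.08. At an unadjusted p under 0.05 there were 6 higher and 2 lower members, 32% beside 9.65% of all genes, and 5 in all without let-7d 1, let-7d 4 or let-7e 6. Irs2, an adaptor of the insulin receptor, stood at 39.14, 80.22 and 100.1 CPM with let-7d and at 70.32, 133 and 164.9 CPM with let-7e (0.67, SE 0.178, edgeR adjusted p = 0.455, DESeq2 0.0509). The groups overlapped at let-7e 1 and let-7e 2 only. Insr, the receptor, was higher by 0.14 (SE 0.0618, edgeR adjusted p = 0.498), Irs1 by 0.43, Pik3cb by 0.35 and Pik3ca, a catalytic subunit of phosphoinositide 3-kinase, by 0.18 (SE 0.0505, DESeq2 adjusted p = 0.0352). Lower were Igfbp3, a binding protein of insulin-like growth factors, at 36, 47.91 and 54.82 CPM against 25.44, 32.93 and 38.99 CPM (-0.52, SE 0.145), and Foxo1, the transcription factor that insulin restrains (-0.38, SE 0.131). Igf1r was at 19.47, 28.08 and 83.02 CPM against 21.15, 24.07 and 28.38 CPM (-0.43, SE 0.244); the top value is let-7d 1, and without it the log2 fold change was -0.13, and -0.014 without let-7d 1 and let-7d 5.

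Transcripts listed as known let-7 targets were spread on both sides. Of 60 in the list 52 were measured, 29 higher and 23 lower with let-7e, with a median of 0.03, and 8 had an unadjusted p under 0.05, 7 of them higher (15.4% beside 9.65% of all genes, and 5 members without let-7e 2). The median was 0.08 without let-7d 1 and slightly below 0 without let-7d 4, with 25 of 52 higher. Thbs1, an antiangiogenic matrix protein, was at 44.18, 91.26 and 120.8 CPM with let-7d and at 54.01, 258.2 and 390.3 CPM with let-7e (1.51, SE 0.476, edgeR adjusted p = 0.455). The let-7e 1 and let-7e 5 libraries were within the let-7d range, and the controls ran from 57.33 to 657.2 CPM. Cdk6, a cell cycle kinase, was the member on the lower side (-0.81, SE 0.309), at -0.39 without let-7d 1 and -0.23 without let-7d 1 and let-7d 5. Neither Thbs1 nor Cdk6 held a match to the let-7 seed in the annotated 3′ UTR used here. Igf2bp2 (0.57), Acvr1c (0.42), Arid3b (0.39) and Ppp1r15b (0.30) were higher. Lin28a, Lin28b, Hmga2 and Igf2bp1, classic targets of early development, were among the 8 not tested.

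The seed match CTACCTC, the complement of bases 2 to 8, was counted on the sense strand of the annotated 3′ UTR of 14167 tested genes (GENCODE M21), of which 9.08% hold it at least once. Genes with no match had a median log2 fold change of -0.01 (12881 genes), genes with 1 match -0.01 (1133 genes) and genes with 2 or more 0.02 (153 genes). Of these classes 10.5%, 10.2% and 13.7% had an unadjusted p under 0.05. UTRs with more matches were longer, with median lengths of 861, 2056 and 3550 bases, so match number and length cannot be told apart here. A match is only these letters in the window, and both microRNAs share it.

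By name, matches were looked up only in 42 genes: the leading genes, the fixed genes and the let-7 target members with the smallest p. Of the 41 with an annotated 3′ UTR, 7 hold a match, where 9.08% of all tested genes with such a UTR do. Those of the insulin pathway and of the leading genes are shown, 22 bases each on the gene's strand in GRCm38, with the seed match in capitals:
Irs2: aaactaccacagtcCTACCTCa
Insr: cttctcagtacagtCTACCTCa
Igf1r, first: tttcaaacatttatCTACCTCa
Igf1r, second: ttgccagagttcatCTACCTCt
Syt7: taataatacttcacCTACCTCa
Btnl9: aaccttctttcccaCTACCTCt
They lie in 3′ UTR exons at chr8:10986528-10986549 (Irs2, minus strand), chr8:3153198-3153219 (Insr, minus), chr7:68229111-68229132 and chr7:68233217-68233238 (Igf1r, plus), chr19:10450891-10450912 (Syt7, plus) and chr11:49165932-49165953 (Btnl9, minus). Tfam and Scd1 hold 1 match each. With the same letters in their UTRs, Irs2 (0.67), Syt7 (0.62) and Btnl9 (0.68) stood higher with let-7e. They were looked up because of their small p, so the size of their differences follows from that choice. Among the fixed genes with a match, Insr was slightly higher (0.14) and Igf1r lower (-0.43, or -0.13 without let-7d 1). Tfam was at 0.01 and Scd1 at 0.09.

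**Figure D4:**
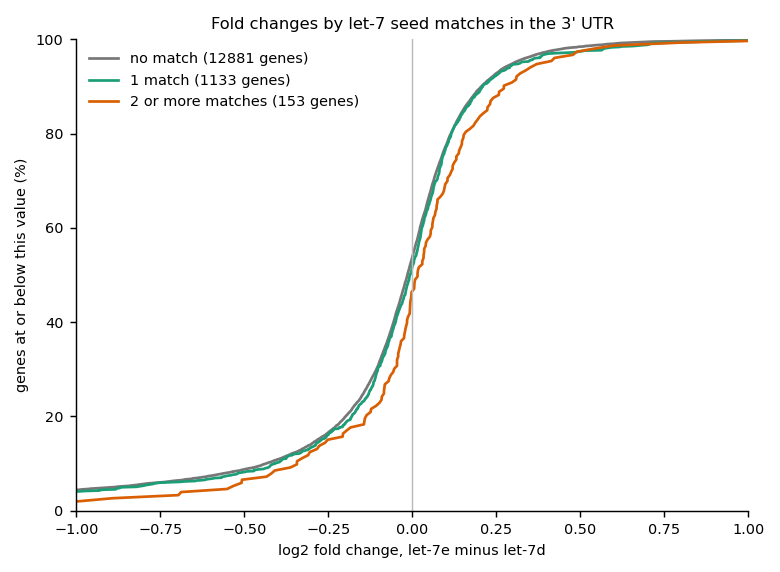
Cumulative share of genes (percent, vertical) by log2 fold change (let-7e minus let-7d, horizontal, cut at -1 and 1) for genes with no seed match (grey, 12881), 1 match (green, 1133) and 2 or more matches (orange, 153) in the 3′ UTR. The grey and green curves nearly coincide around medians of -0.01, and the orange curve lies slightly to the right with a median of 0.02.

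The machinery of microRNAs and the transcripts that hold let-7 genes differed little. Of 20 measured genes of microRNA processing, 11 were higher, with a median of 0.04 and a range of -0.17 to 0.23. Dicer1, which cuts precursors, was at 34.2, 39.4 and 49.03 CPM with let-7d and at 40.13, 43.82 and 50.02 CPM with let-7e (0.13, SE 0.0677, edgeR adjusted p = 0.569), and Tut1, a terminal uridylyltransferase, was higher by 0.23. The median was -0.00 without let-7d 4, with 10 of 20 higher. Of 5 measured let-7 host transcripts, 3 were higher and 2 lower, and Spaca6, which holds let-7e, was at 0.09. Mature microRNAs were not measured in these libraries.

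Wnt pathway genes went to both sides. Of 40 measured, 16 were higher and 24 lower, with a median of -0.06, and the sign of the median turned without let-7d 1 (0.02), let-7d 5 (0.02) or let-7e 1 (0.01), and it was 0.11 without let-7d 1 and let-7d 5. At an unadjusted p under 0.05 there were 3 higher and 6 lower members, 22.5% beside 9.65% of all genes. Members at that level ran from 3 (without let-7d 1) to 12 (without let-7d 2 or let-7e 4), and numbered 5 without let-7d 1 and let-7d 5. The receptors Fzd1 (0.45, SE 0.155), Fzd7 (0.30, SE 0.0749, DESeq2 adjusted p = 0.0468) and Fzd4 (0.25) were higher with let-7e. Among ligands Wnt5b was lower (-0.73, SE 0.248), at -0.47 without let-7d 1 and -0.32 without let-7d 1 and let-7d 5, and Rnf43, a ligase that removes receptors, was lower by -3.08 but at -1.82 without let-7d 5 and at -0.00 without let-7d 1 and let-7d 5. Axin2, a feedback target, was at 20.75, 26.65 and 44.47 CPM against 17.48, 22.71 and 30.13 CPM (-0.35, SE 0.194), at -0.17 without let-7d 1. The controls, at 10.13 to 15.59 CPM, lay below all 12. Zeb2, a transcription factor of mesenchymal cells, was at 0.02 (SE 0.126), and Pparg, the regulator of fat cell formation, at -0.03 (SE 0.122); the sign of both turned with single libraries.

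Among 19 clock genes, 11 were higher and 8 lower, with a median of 0.10 that ran from 0.02 to 0.23 as single libraries were left out. Nfil3, a repressor in the clock's output, was at 6.053, 8.671 and 21.04 CPM with let-7d and at 3.11, 5.1 and 5.893 CPM with let-7e, with no overlap (-1.07, SE 0.282, edgeR adjusted p = 0.455, DESeq2 0.0447). Arntl, the core activator, was at -0.99, or -0.60 without let-7d 6, and its repressors Nr1d1 (0.29) and Nr1d2 (0.30) were on the opposite side, each at 0.16 without let-7d 6. The time of tissue collection is not given in the labels. Of 23 imprinted genes, 13 were higher and 10 lower (median 0.03, from -0.01 to 0.12 as single libraries were left out). Of these, 4 higher and 2 lower members had an unadjusted p under 0.05, 26.1% beside 9.65% of all genes. Members at that level numbered 4 without let-7d 5 or let-7e 6 and 7 without let-7d 2. Peg3, a paternally expressed zinc finger gene, was at 17.72, 42.33 and 56.96 CPM against 51.05, 66.9 and 82.58 CPM (0.71, SE 0.228). Slc38a4, an amino acid transporter, was at -1.99, but at -0.89 without let-7d 1 and at -0.19 without let-7d 1 and let-7d 5, and Dlk1 was at -0.56 (-0.17 without let-7d 1, and -0.086 without let-7d 1 and let-7d 5).

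Immune lists other than inflammation were lower with let-7e over the 12 libraries, and their medians moved with single libraries. Of 24 interferon response genes, 23 were lower and 1 higher, with a median of -0.22 and no lower member at an unadjusted p under 0.05. In the early libraries 19 of 24 were higher (median 0.18), and in the late ones 22 of 24 were lower (median -0.31). The list level was 5.15 (mean log2 CPM) in let-7d 5 and 3.67 to 4.36 in the other let-7d libraries, beside 3.81 to 4.23 with let-7e. Irf7, a regulator of that response, was at 94.23 CPM in let-7d 5 and 23.23 to 37.14 CPM in the other let-7d libraries, and its log2 fold change was -0.50, or -0.11 without let-7d 5. Without let-7d 5 the list's median was -0.02, with 11 of 24 higher. Rsad2 was at -0.37, or -0.17 without that library, and Ifi27l2a was higher by 0.45, or 0.29 without let-7e 4.

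Of 27 lymphocyte genes, 23 were lower (median -0.36), and without let-7d 2 the median was -0.02, with 11 of 27 higher; without let-7e 6 it was -0.22. Igkc and Jchain, made by antibody-secreting cells, reached 252.3 and 101.7 CPM in let-7d 2, and their log2 fold changes were -2.09 and -2.20, or -1.65 and -1.50 without that library. Igha, an antibody heavy chain gene chosen after its values were seen, did not overlap between the groups (-1.67). The list's summed level ran from 473.41 to 1615.5 CPM with let-7d and from 504.22 to 1068.7 CPM with let-7e. Xbp1 (0.25) and Gata3 (0.01) were on the higher side. Macrophage genes had 18 of 24 lower, with a median of -0.10 that ran from -0.20 to 0.01 as single libraries were left out. They were lower in 23 of 24 cases in the early libraries (median -0.28) and in 13 of 24 in the late ones (median -0.01). Granulocyte and mast cell genes had 7 of 9 lower (median -0.16, or 0.10 without let-7d 2 and 0.10 without let-7e 1). At an unadjusted p under 0.05 stood 11.1% of lymphocyte, 4.17% of macrophage and 11.1% of granulocyte and mast cell genes, beside 9.65% of all genes. In the inflammation list 9 of 20 were higher (45%, beside 46.5% of all genes), and the median of -0.03 ran from -0.08 to 0.05. Cxcl12, a chemokine of stromal cells, was at 117.6, 131 and 162.9 CPM against 133.2, 180.9 and 230.2 CPM (0.39, SE 0.0949, edgeR adjusted p = 0.455, DESeq2 0.0221). Tlr4 was higher by 0.22 (0.14 without let-7d 4) and Ccl8 lower by -1.39 (-0.71 without let-7d 1 and let-7d 5). Lcn2 was at -2.81, or -1.47 without let-7d 1 and -1.64 without let-7d 5, and turned to 0.54 without let-7d 1 and let-7d 5.

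Genes of tissues beside the fat pad moved with these libraries. All 18 measured genes of absorptive and ciliated epithelium were lower with let-7e, with a median of -3.27 and 15 at an unadjusted p under 0.05, beside 5.08% of all genes lower. That count was 2 without let-7d 1, 4 without let-7d 5 and 0 with limma-voom. Vil1, a microvillus protein, was at 0.7669, 9.849 and 31.93 CPM with let-7d and at 0.8419, 1.249 and 2.91 CPM with let-7e, and Cdhr5, a brush border cadherin, at 0.2707, 9.177 and 54.93 CPM against 0.0691, 0.1687 and 4.585 CPM. Their high values are let-7d 1, let-7d 3 and let-7d 5, so the groups overlapped. Their log2 fold changes were -3.06 (Vil1) and -4.51 (Cdhr5), and -1.87 and -2.93 without let-7d 1 and let-7d 5. Without let-7d 5 the list's median was -1.60, and without let-7d 1 and let-7d 5 it was -0.12, with 9 of 18 lower. Epididymis and testis genes summed to 0.838 to 57.3 CPM with let-7d and to 0.947 to 36.4 CPM with let-7e. In the fit 6 of 9 were lower (median -1.63, or -0.70 without let-7d 4). The 2 members at an unadjusted p under 0.05 were both higher, beside 4.57% of all genes. As a difference of mean log2 CPM, the median was -3.64 in the early and 0.62 in the late libraries. A fit of the late libraries alone, which kept 5 members, gave -0.81 with 0 higher. The side in the late libraries thus depended on the measure. Smooth muscle genes had 12 of 14 lower (median -0.16, or -0.10 without let-7e 6), turning to 0.10 with 10 of 14 higher without let-7d 5. The part of these tissues in other differences was not tested beyond the fits without those libraries.

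Further lists had small medians, given here with their range as single libraries were left out. Extracellular matrix genes had 21 of 35 higher (median 0.02, range 0.00 to 0.11), fibroblast and progenitor genes 10 of 20 (0.04, -0.04 to 0.07) and antioxidant enzymes 13 of 25 (0.03, 0.00 to 0.05). Immediate early genes had 15 of 20 higher (0.15, 0.07 to 0.20), red cell genes 6 of 8 (0.18, 0.09 to 0.33) and nuclear noncoding RNAs 1 of 6 (-0.11, -0.17 to -0.06). Adipokine and expansion genes had 8 of 12 higher (0.11, -0.02 to 0.24), mitochondrial regulators 13 of 20 (0.02, -0.01 to 0.05), thermogenic genes 3 of 13 (-0.11, -0.21 to -0.05) and mesothelial genes 6 of 12 (-0.01, -0.45 to 0.27). Proliferation genes had 14 of 28 higher (0.00, -0.27 to 0.22), with 25 of 28 higher in the early and 25 of 28 lower in the late libraries. Without let-7d 1 and let-7d 5 some of these medians moved further. They were then -0.06 for adipokine and expansion genes (5 of 12 higher) and 0.0020 for thermogenic genes (7 of 13). Mesothelial genes were at -0.42 (1 of 12 higher) and proliferation genes at -0.16 (2 of 28).

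Whether let-7e against let-7d differed between the early and the late libraries was tested gene by gene. With 2 libraries a group in the early series, 0 genes had an edgeR adjusted p under 0.05 for the interaction (0.00%, smallest 0.409), and 514 had an unadjusted p under 0.05 (3.13%), beside 4 DESeq2 calls and 0 by limma-voom. The opposite sides of complex I, the citric acid cycle, the mitochondrial ribosome, lipogenesis, interferon response and proliferation genes in both series are therefore a description and did not pass a test for single genes. For the 24 leading genes the difference had the same sign in both series. They were picked by p over both series together, which favours such agreement, so it is no separate support. Early and late are only a form of the library identifier, and what it stands for is not given in the labels.

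**Figure D5:**
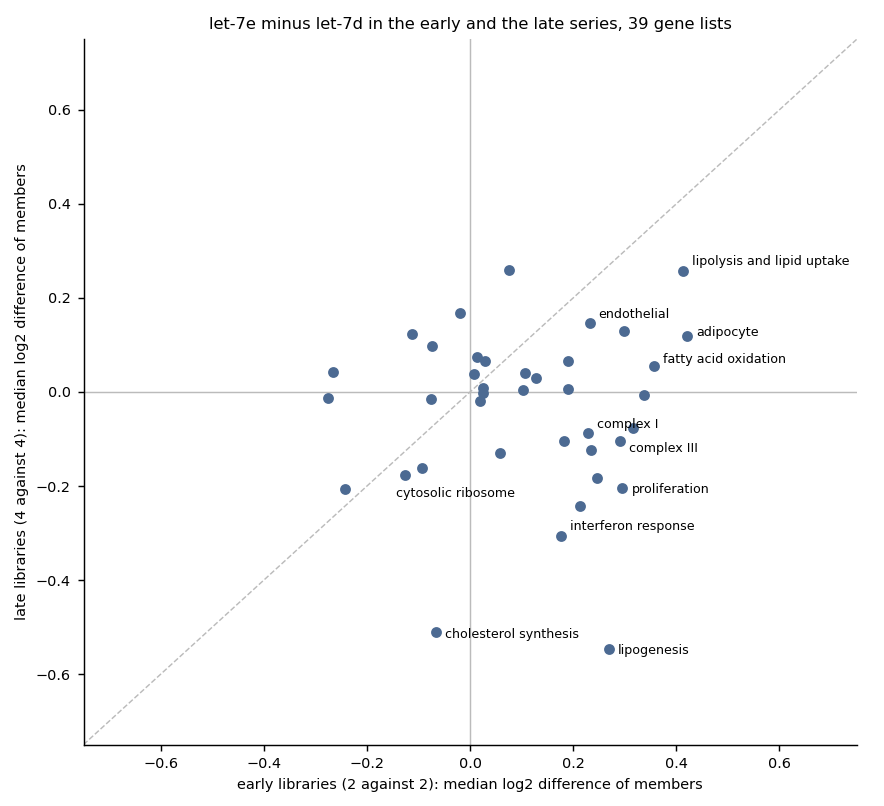
Median log2 difference (let-7e minus let-7d) of each of 39 lists in the early libraries (2 against 2, horizontal) and in the late libraries (4 against 4, vertical); the dashed line marks equal values, and the epithelium and the epididymis and testis lists, which exceed the axes, are left out. Endothelial and lipolysis lists lie in the upper right at 0.23 and 0.15 and at 0.41 and 0.26, lipogenesis at 0.27 and -0.55, and complexes I and III lie right of and below 0.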

How the data were processed

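RNA from eWAT was sequenced, and per the submitters' processing notes reads were aligned with STAR to GRCm38.p6 with GENCODE M21; the counting tool is not given in the sources used here. The authors deposited raw counts per gene, already filtered on CPM at a threshold not stated; a second table, named for RPKM, was not used. Columns of other samples numbered 0, and control replicate 5 was not analysed here.

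The 12 let-7d and let-7e libraries were fitted with edgeR 4.0.16 (quasi-likelihood, TMM, filterByExpr, group plus identifier series; limma 3.58.1, DESeq2 1.42.0, R 4.3.3) over 16443 of 16452 genes, with Benjamini-Hochberg adjustment and a threshold of 0.05. CPM values use TMM over all 17 libraries, log2 CPM a prior count of 2. Values within the early or the late libraries are differences of mean log2 CPM, unless a fit is named. They are not fitted log2 fold changes. The late-library values in the section on processing come from a fit of those libraries alone. On simulated counts this fit recovered 74% of 100 genes planted at 2-fold and 94% of 100 at 4-fold, among 15562 genes, with 6 false calls. The simulation held no series effect and no outlying library. Folds below 2 were not planted, so recovery of smaller differences is not known.

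Named are the 12 genes of smallest p in each direction (mean of at least 1 CPM, predicted genes, pseudogenes and receptor segments left out), 16 fixed genes and, per described list, the 2 members of smallest p each way; further members with values were chosen after those were seen. Of the genes so named, 1 is not reported here. Members and lists were chosen with earlier results of these data known. Alternatives covered normalization, filters, tools, the series term and left-out libraries; the length and GC setting was added after seeing the data. Labels gave no further batch, and same-numbered samples did not deviate together.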

Additional observations from a re-analysis of the deposited data

Results flagged for a closer look

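In 9 of 166 groups of 6 values (39 genes, 41 lists and 3 library measures were looked at), 1 library lay far from the other 5 by Dixon's test at its 95% limit; chance alone gives this in about 1 in 20 groups. Lep was at 660.3 CPM in let-7d 5 (1753 to 2546 in the others of its group). In let-7e 4 it was at 504.4 CPM (1389 to 1798 in the other let-7e libraries). Insr was at 128.9 CPM in let-7d 2 (97.19 to 108 elsewhere in its group), and Igf1r at 83.02 CPM in let-7d 1 (19.47 to 32.45).

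Among list levels (mean log2 CPM), let-7e 6 stood at 11.35 for adipocyte genes (11.11 to 11.16 in the other let-7e libraries), at 9.087 for lipolysis and lipid uptake (8.71 to 8.76) and at -0.02702 for lymphocyte genes (0.7694 to 1.183). The let-7d 4 library stood at 7.452 for the cytosolic ribosome (7.031 to 7.127 in the other let-7d libraries), and let-7d 5 at 5.868 for smooth muscle (4.504 to 4.995). What sets these libraries apart was not tested.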

How the results depend on the processing

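Of 3182 alternative values for 139 results, 3079 were labelled as the same, 33 newly passed the threshold, 18 moved and 52 reversed. Only genes could be labelled as reversed or newly passing. For a gene, the same meant the same direction and side of the threshold. For a list median it meant a shift within the SD of the list's level between libraries. A median that changed sign could thus count as the same. For counts of genes it meant a change within a set factor. The cause was not tested. DESeq2 called 89 genes, and 4 for the interaction. Leaving out single libraries gave 0 to 2 adjusted calls (2, Dysf and Btnl9, without let-7d 2) and 1033 (without let-7d 1) to 2182 (without let-7d 2) at an unadjusted p under 0.05. Same-numbered libraries did not pair (correlations -0.39 to 0.36, 1 of 6 over 0.1). Replicates 1 and 2 give the same correlation by construction, so these are not 6 separate values. A replicate block in place of the series gave 0 adjusted and 1247 unadjusted calls. List medians moved with limma-voom (epithelium -0.89, epididymis and testis 0.52), in late libraries (adipokines 0.37, lipogenesis -0.51) and without let-7d 1 and let-7d 5 (epithelium -0.12, known let-7 targets 0.10); microRNA processing ran from -0.0018 to 0.058 as single libraries were left out. Reversed with limma-voom were Cpt1b (-0.11), Gata3 (-0.025), Ndufs1 (-0.052) and Zeb2 (-0.036); in late libraries Gata3 (-0.33), Ndufs1 (-0.11), Ppargc1a (0.24), Tfam (-0.031) and Zeb2 (-0.059); without let-7d 1 and let-7d 5 Gata3 (-0.054), Lcn2 (0.54), Ndufs1 (-0.059), Ppargc1a (0.41) and Zeb2 (-0.10); at a mean of at least 5 CPM Ndufs1 (-0.0023) and Tfam (-0.0051); with no series term Gata3 (-0.012); with length and GC removed Pparg (0.0065) and Zeb2 (-0.0034). Leaving out single libraries, Cpt1b ran from -0.074 to 0.19, Emcn from -0.092 to 0.016, Fabp5 from -0.26 to 0.073, Gata3 from -0.17 to 0.14, Ndufs1 from -0.056 to 0.065, Plin2 from -0.13 to 0.011, Pparg from -0.11 to 0.061, Ppargc1a from -0.26 to 0.24, Scd1 from -0.018 to 0.15, Tfam from -0.023 to 0.039 and Zeb2 from -0.044 to 0.12. The epididymis and testis list gave no value at a mean of at least 5 CPM. Libraries of 12717365 counts and more limit what genes near 1 CPM can show.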
